A study of Mus musculus with 6 samples.

Results

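The integrin subunits described here are 10 genes, taken by name from the deposited counts of 37620 genes. They are the beta subunits Itgb1, Itgb5 and Itgb8 and the alpha subunits Itga1, Itga3, Itga5, Itga6, Itga7, Itga10 and Itgav, and all 10 had counts in every sample. The remaining 17 integrin genes of the mouse served as a comparison. The mRNAs came from tagged ribosomes of the dentate gyrus, the hippocampal region in which radial-glia-like neural stem cells (RGLs) persist in the adult. Every mouse carried Gli1CreERT2, a tamoxifen-inducible Cre driven by the Hedgehog target Gli1, and Rpl22HA f/+, an allele that Cre turns into a ribosomal protein with an HA tag. The Klf9 f/f mice also carried floxed Klf9 alleles and the Klf9 +/+ mice carried wild-type alleles, and all mice received tamoxifen. Klf9 is a zinc finger transcription factor of the Kruppel-like family. RNA was taken 4 days after the last injection in mice of 2–3 months, with 6 dentate gyri from 3 mice pooled per sample and 3 samples per genotype. The driver is also known to recombine in astrocytes, so the pulldown is not pure RGL mRNA. In these bulk samples, fewer cells of a type and less mRNA per cell cannot be told apart.

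Integrins are cell surface receptors made of an alpha and a beta subunit, which join the extracellular matrix or a neighbouring cell to the actin cytoskeleton. The alpha chain largely sets the ligand. The chains of Itga3, Itga6 and Itga7 pair with that of Itgb1 and bind laminins, those of Itga1 and Itga10 pair with it and bind collagens, and that of Itga5 pairs with it and binds fibronectin. The chain of Itgav joins several beta chains, among them those of Itgb1, Itgb5 and Itgb8, and binds ligands that carry the Arg-Gly-Asp sequence. In the brain, laminin receptors anchor radial glia, astrocyte endfeet and vessels to basement membrane, and the pair of Itgav and Itgb8 releases active TGF-beta from its latent complex.

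The samples held 21594714 to 66343759 counts on genes. Replicates 1 and 2 of each genotype belong to the library series YTa22 and replicate 3 of each to the series YTa32, as the titles name them, and the labels hold no pairing, so replicate numbers only name samples. The series differed in how reads reached genes. Reads on no gene made up 6.33% to 7.66% in YTa22 and 10.9% to 12.2% in YTa32. Reads ambiguous between genes made up 2.42% to 2.64% in YTa22 and 1.35% to 1.38% in YTa32. The targeted gene, Klf9, had 200.9, 203.9 and 139.0 CPM in Klf9 +/+, and the Klf9 f/f values were 114.3, 121.3 and 120.0 CPM. CPM is the count scaled to library size, here with the TMM factors of edgeR. The floxed part of Klf9 is exon 1, and the gene count also takes in reads of the other exon. Its log2 fold change, Klf9 f/f over Klf9 +/+, was -0.59 ± 0.15 (SE). The fit behind it and behind the tests below was edgeR's quasi-likelihood test on 15056 genes with the library series as a term. The 12 radial glia markers summed to 8944–13254 CPM and the 10 astrocyte markers to 6664–10033 CPM, while 12 endothelial, 11 mural, 11 meningeal and 12 choroid plexus markers were also detected, and 0 of the listed markers were at 0 in all samples. Gene coordinates below are those of mm9, the build of the counts, and samples are given in the order of replicates 1, 2 and 3.

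Itgb1 and Itgb5 dominated the integrin mRNAs, and Itga6 and Itgav led the alpha subunits at a far lower level. Levels of different genes were compared as CPM per kilobase of exon. Itgb1 averaged 40.8 and Itgb5 37.0 CPM per kilobase over the 6 samples. Itgb8 came next among the beta subunits at 6.06 CPM per kilobase. Of the alpha subunits, Itga6 averaged 4.46, Itgav 4.14, Itga7 2.95 and Itga3 1.97 CPM per kilobase. Itga5 at 1.05, Itga1 at 0.79 and Itga10 at 0.178 CPM per kilobase closed the order.

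Several neighbours in this order changed places between samples. Itgb1 lay above Itgb5 in 3 of 3 Klf9 +/+ samples but in 1 of 3 Klf9 f/f samples. Itga6 lay above Itgav in 3 of 6 samples, Itgav above Itga7 in 5 of 6 and Itga5 above Itga1 in 4 of 6. The other 5 neighbouring pairs held their order in 6 of 6 samples, with Itgb5 at 4.26 to 7.12 times the level of Itgb8. Exon length set part of the order. With the longest annotated transcript in place of all exons, Itga6 reached 9.34 CPM per kilobase and stood above Itgb8 at 7.98.

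**Figure D1:**
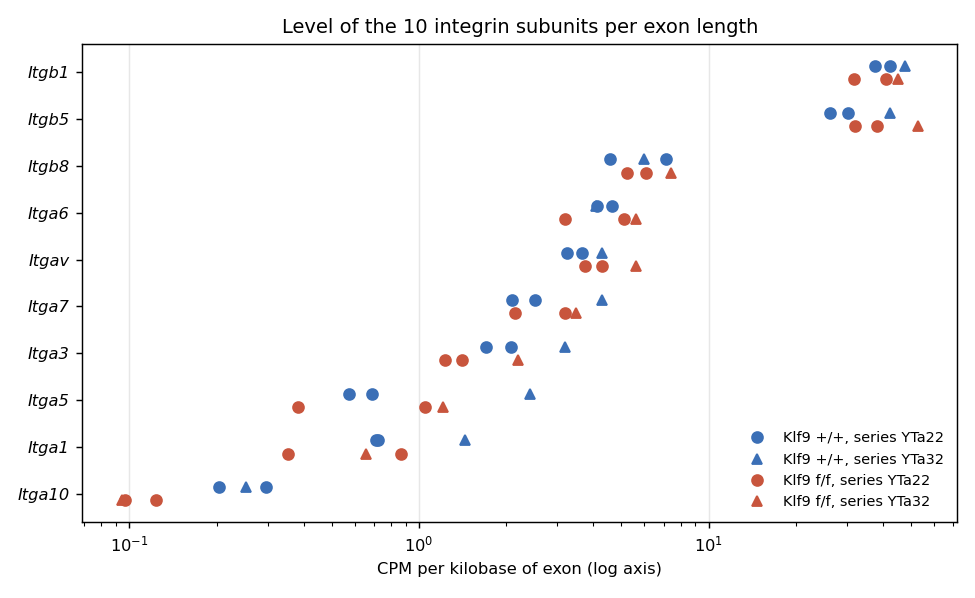
Level of each of the 10 integrin subunits in CPM per kilobase of exon on a log axis. Each point is a sample, blue for Klf9 +/+ and red for Klf9 f/f, with circles for series YTa22 and triangles for YTa32. Itgb1 (31.7 to 47.6) and Itgb5 (26.3 to 52.7) overlap and stand apart from the other 8, and the Itga10 points of the genotypes do not overlap.

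The 10 genes held nearly all of the beta level and most of the alpha level. They made up 98.5% to 99.3% of the summed CPM per kilobase of all beta subunits and 79.1% to 84.9% of that of all alpha subunits. Of the 17 other integrin genes, Itga8 was the highest, at 1.48 CPM per kilobase, followed by Itgam, the alpha chain of the microglial complement receptor, at 0.453 and Itga11, a collagen receptor chain, at 0.447. Itga8 encodes another partner of Itgb1 that binds Arg-Gly-Asp ligands, and it ranked above Itga5, Itga1 and Itga10. Itgb2l had 0 counts in every sample, which allows 3 counts per sample. The summed beta level was 3.88 to 4.93 times the summed alpha level.

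The genotypes did not overlap in the share of Itgb1 in the beta pool. Itgb1 made up 49.4%, 57.2% and 48.9% of the summed beta level in Klf9 +/+ replicates 1 to 3 and 47.6%, 45.7% and 42.4% in Klf9 f/f replicates 1 to 3. The lowest Klf9 +/+ sample lay above the highest Klf9 f/f sample, by less than the spread within either genotype. The means were 51.9% ± 4.66 and 45.2% ± 2.61 (SD, n = 3 each, two-sided exact permutation p = 0.1, the smallest possible with 3 against 3, and 0.325 after Benjamini-Hochberg adjustment over 13 quantities of this kind). The difference was -6.67 percentage points within series YTa22 and -6.51 within YTa32.

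Itgb5 took up the other side of that difference. Shares of the same pool are not independent, and Itgb1 and Itgb5 made up most of this pool. The Itgb5 share and the ratio of Itgb5 to Itgb1 therefore largely restate the Itgb1 share. The Itgb5 share of the beta level was 39.7% ± 3.90 in Klf9 +/+ and 46.7% ± 2.74 in Klf9 f/f (SD, n = 3 each, exact permutation p = 0.1, adjusted 0.325). The ratio of Itgb5 to Itgb1 was 0.812, 0.622 and 0.886 in Klf9 +/+ and 0.932, 1.01 and 1.17 in Klf9 f/f, so that the groups did not overlap. Itgb8 held 6.16% to 9.42% of the beta level, with means of 7.25% and 7.18%. On the alpha side, Itgav made up 19.6% ± 2.14 in Klf9 +/+ and 24.7% ± 2.22 in Klf9 f/f (SD, n = 3 each, exact permutation p = 0.1, adjusted 0.325), again without overlap. Itga6 made up 26.2%, 26.6% and 16.4% in Klf9 +/+ and 26.4%, 22.7% and 25.3% in Klf9 f/f, and these overlapped (exact permutation p = 0.9). The beta to alpha ratio was 4.31 ± 0.447 and 4.72 ± 0.233 (SD, n = 3 each, exact permutation p = 0.3). The top alpha share, the top beta share and the beta to alpha ratio were chosen ahead of the other 10 quantities, which were chosen after their values were seen. Itga6 and Itgb1 were then taken as the highest of their chain in Klf9 +/+. In Klf9 f/f, Itgb5 (41.0 CPM per kilobase) averaged above Itgb1 (39.2). A gene picked as high in Klf9 +/+ is favoured to have a lower share in Klf9 f/f, so the difference in the Itgb1 share is a description.

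**Figure D2:**
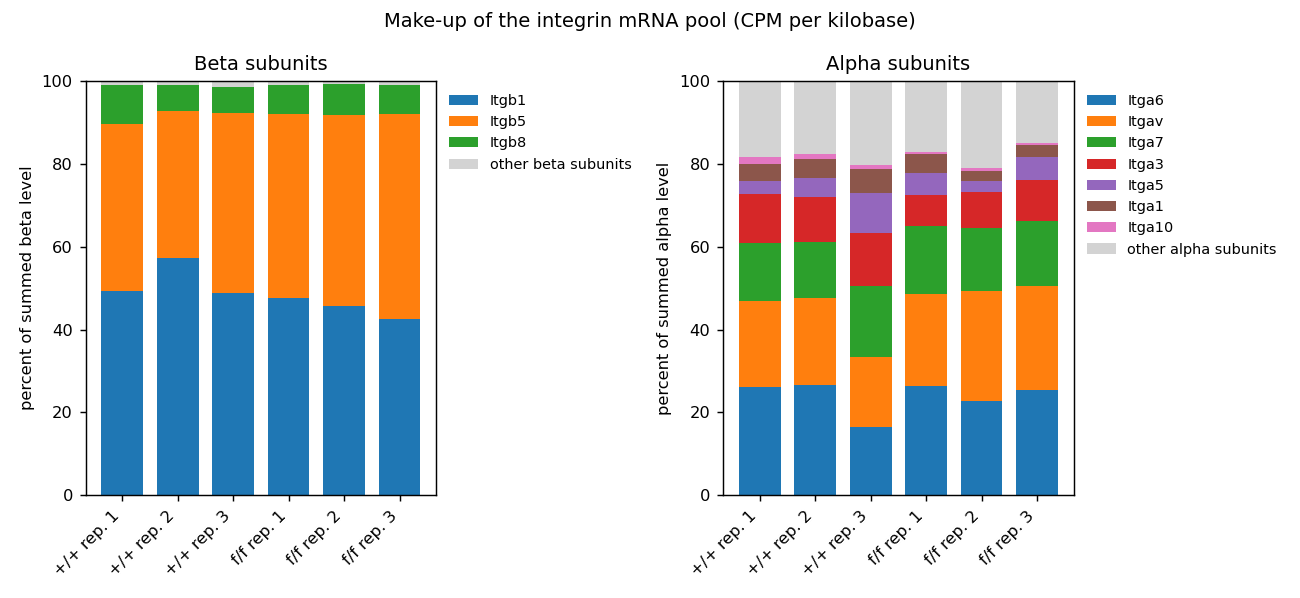
Share of each subunit in the summed level of the beta (left) and alpha (right) integrin mRNAs, in percent of CPM per kilobase, with a bar for each sample. Grey is the sum of the integrin genes outside the 10. Itgb1 takes 48.9% to 57.2% of the beta level in Klf9 +/+ and 42.4% to 47.6% in Klf9 f/f, and in Klf9 +/+ replicate 3 Itga6 takes 16.4% of the alpha level.

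In Klf9 f/f, 2 of the 10 subunits were lower, Itga3 and Itga10, and 1 was higher, Itgb5. Itga10 was tested only through its Klf9 +/+ samples, the group in which it is high, so the count of lower genes is a description. A call here took a change of 1.2-fold and an unadjusted p under 0.05. Over all 15056 genes tested, this rule called 2.5% lower and 1.82% higher. At a Benjamini-Hochberg adjusted p under 0.05, 0 of the 10 and 0% of all genes were called by edgeR's quasi-likelihood test, against 650 genes at an unadjusted p under 0.05, 58 genes by its likelihood-ratio test and 39 by DESeq2, of which 0 were among the 10. The adjusted p was 0.9995 for each of the 10. Their median log2 fold change was -0.03, beside 0.0008 over all genes, with 5 above and 5 below 0.

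Within each library series, Itga3 and Itga10 were lower in every Klf9 f/f sample than in every Klf9 +/+ sample, as were 5.53% of all genes. Itgb5 and Itgav were higher in the same sense, as were 7.78% of all genes. With the series set aside, Itga10 alone had no overlap between the genotypes. Since Itga10 was tested only through its Klf9 +/+ samples, its separation is a description. Of all genes, 1.35% had the Klf9 f/f samples wholly below and 2.03% wholly above.

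**Figure D3:**
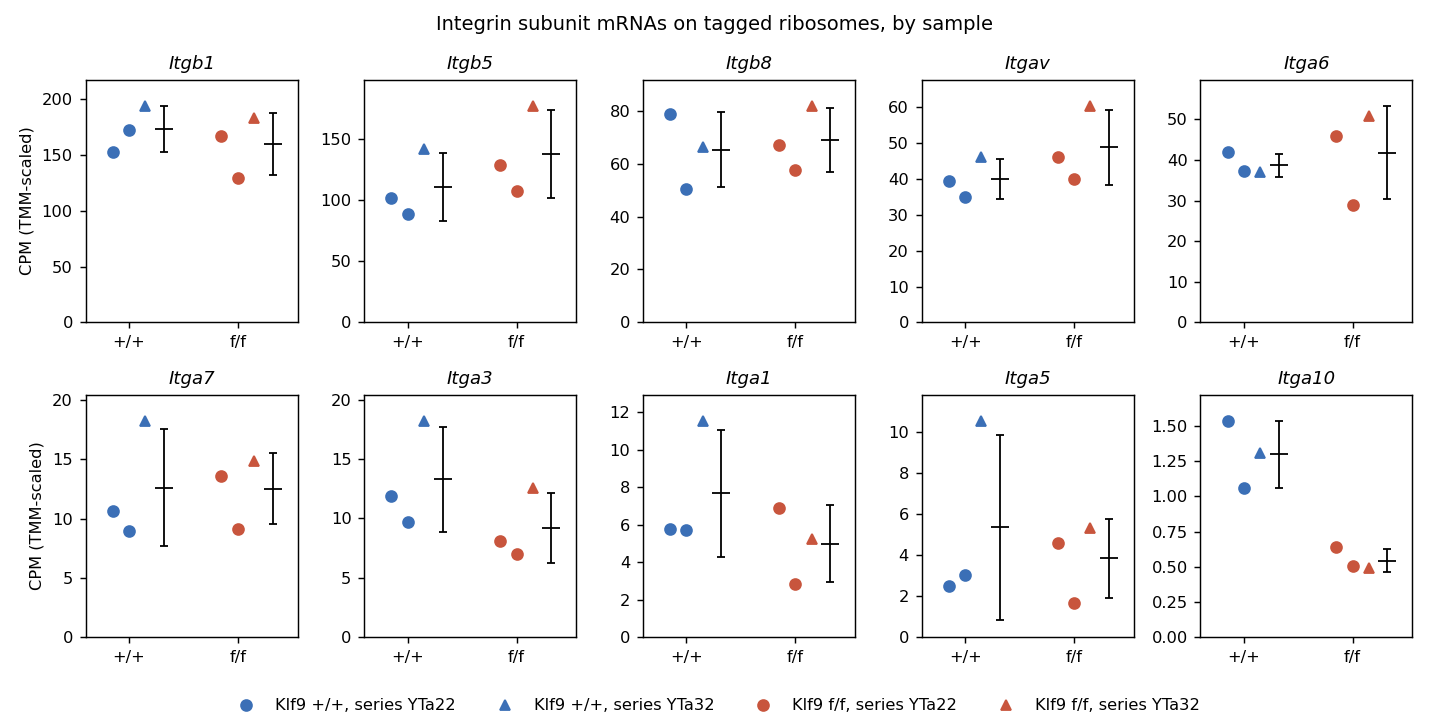
CPM of each integrin subunit in the 6 samples, with the vertical axis of each panel starting at 0. Points are samples, circles for series YTa22 and triangles for YTa32, and the bar beside them is the mean ± SD of the 3. Itgb5 and Itgav have their triangle highest in both genotypes, and the red Itga10 points (0.490 to 0.641 CPM) lie below the blue ones (1.06 to 1.54 CPM).

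Itgb5 (chromosome 16, plus strand, 33829751 to 33949239) encodes the chain that forms a vitronectin receptor with that of Itgav. It stood at 102.0, 88.5 and 141.8 CPM in Klf9 +/+, while Klf9 f/f had 128.6, 107.4 and 177.1 CPM. Both samples of series YTa32 were the highest of their genotype, and across series the genotypes overlapped. The log2 fold change was 0.31 ± 0.13 (SE, unadjusted p = 0.0434 from edgeR's quasi-likelihood test, adjusted 0.9995). The difference was 0.31 within YTa22 and 0.32 within YTa32. The call was lost without the series term, with upper-quartile or RLE scaling, and without any of Klf9 f/f replicates 1 or 3 or Klf9 +/+ replicates 2 or 3, with log2 fold changes of 0.24 to 0.31 in those leave-outs.

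Itgav, the partner of Itgb5, had a difference of like size that was not called. Itgav (chromosome 2, plus strand, 83564554 to 83647073) stood at 39.4, 34.9 and 46.0 CPM in Klf9 +/+, and Klf9 f/f had 46.1, 40.1 and 60.5 CPM. In each series the Klf9 f/f samples were above the Klf9 +/+ samples, by 0.21 and 0.39 on the log2 scale. Itgav had a log2 fold change of 0.27 ± 0.13 (SE, unadjusted p = 0.0691). Itgav passed the threshold in 1 of 17 alternatives, without Klf9 f/f replicate 2, at 0.35. The summed level of Itgb5 and Itgb8 was 10.3 times that of Itgav in both genotypes (SD 0.869 and 0.364, n = 3 each), a ratio also chosen after its values were seen.

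Itgb8, whose chain pairs with that of Itgav alone and acts in TGF-beta activation, is on the minus strand of chromosome 12 (120396495 to 120477275). It stood at 78.8, 50.5 and 66.3 CPM in Klf9 +/+, and Klf9 f/f had 67.1, 57.7 and 81.9 CPM. The genotypes overlapped, and the series gave log2 differences of -0.02 and 0.31. Its log2 fold change was 0.07 ± 0.18 (SE).

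Itgb1, the shared partner of all 7 alpha subunits here, is on the plus strand of chromosome 8 (131209554 to 131257100). It stood at 152.6, 172.6 and 194.2 CPM in Klf9 +/+, and Klf9 f/f had 167.4, 129.5 and 183.5 CPM. Klf9 f/f replicate 2 was the lowest of the 6, and the other samples of the genotypes overlapped. The fit gave a log2 fold change of -0.11 ± 0.14 (SE, unadjusted p = 0.440), with -0.14 and -0.08 in the series.

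Of the laminin receptor chains, Itga3 alone was called. Itga3 (chromosome 11, minus strand, 94905788 to 94938115) stood at 11.9, 9.70 and 18.2 CPM in Klf9 +/+, and Klf9 f/f had 8.06, 7.00 and 12.6 CPM. Within each series the Klf9 f/f samples were the lower, and the YTa32 sample was the highest of each genotype. The log2 fold change was -0.53 ± 0.18 (SE, unadjusted p = 0.0150, adjusted 0.9995), with -0.52 and -0.54 in the series. Its call was lost without the series term, at -0.53 (SE 0.32). It was also lost without any of Klf9 +/+ replicates 1 or 3 or Klf9 f/f replicates 2 or 3, where the log2 fold change was -0.44 to -0.52.

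Itga6, the highest alpha chain per kilobase and a marker of many stem cell niches, is on the plus strand of chromosome 2 (71583673 to 71696473). It stood at 42.0, 37.2 and 37.0 CPM in Klf9 +/+, and Klf9 f/f had 45.9, 28.8 and 50.8 CPM. The Klf9 f/f samples spread on both sides of the Klf9 +/+ samples. Itga6 had a log2 fold change of 0.10 ± 0.20 (SE), with -0.12 in YTa22 and 0.46 in YTa32. Itga7, a laminin receptor chain best known from muscle, is on the plus strand of chromosome 10 (128370869 to 128395333). It stood at 10.7, 8.92 and 18.3 CPM in Klf9 +/+, and Klf9 f/f had 13.6, 9.15 and 14.8 CPM. These overlapped, with a log2 fold change of 0.05 ± 0.21 (SE) and series differences of 0.19 and -0.30.

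Both collagen receptor chains had negative log2 fold changes, and the low-level Itga10 was called. Itga10 (chromosome 3, plus strand, 96449507 to 96468442) had 76, 61 and 40 counts in Klf9 +/+ and 42, 25 and 11 counts in Klf9 f/f. These were 1.54, 1.06 and 1.31 CPM against 0.641, 0.503 and 0.490 CPM. The log2 fold change was -1.24 ± 0.38 (SE, unadjusted p = 0.0102, adjusted 0.9995), with -1.16 and -1.37 in the series. Itga10 passed the filter of 1 CPM only through the Klf9 +/+ samples, and a filter met in this way favours a lower value in Klf9 f/f. The other 9 were above 1 CPM in all 6 samples. The call was lost without Klf9 +/+ replicate 1, at -1.08.

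Itga1 (chromosome 13, minus strand, 115748287 to 115892172) stood at 5.76, 5.70 and 11.6 CPM in Klf9 +/+, and Klf9 f/f had 6.91, 2.82 and 5.25 CPM. Klf9 +/+ replicate 3 was the highest and Klf9 f/f replicate 2 the lowest, and the genotypes overlapped. Itga1 had a log2 fold change of -0.53 ± 0.35 (SE, unadjusted p = 0.162). It passed the threshold without Klf9 f/f replicate 1, at -1.07, and with no filter beyond 1 count, at -0.52. It was nearer to 0 without Klf9 f/f replicate 2 (-0.29), Klf9 f/f replicate 3 (-0.23) or Klf9 +/+ replicate 3 (-0.24).

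Itga5, the fibronectin receptor chain, is on the minus strand of chromosome 15 (103174720 to 103197194). It stood at 2.51, 3.03 and 10.6 CPM in Klf9 +/+, and Klf9 f/f had 4.58, 1.67 and 5.30 CPM. Klf9 +/+ replicate 3 was far above the other samples. The log2 fold change was -0.21 ± 0.40 (SE), with 0.01 in YTa22 and -0.99 in YTa32, and without Klf9 f/f replicate 1 it was called lower at -0.85.

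**Figure D4:**
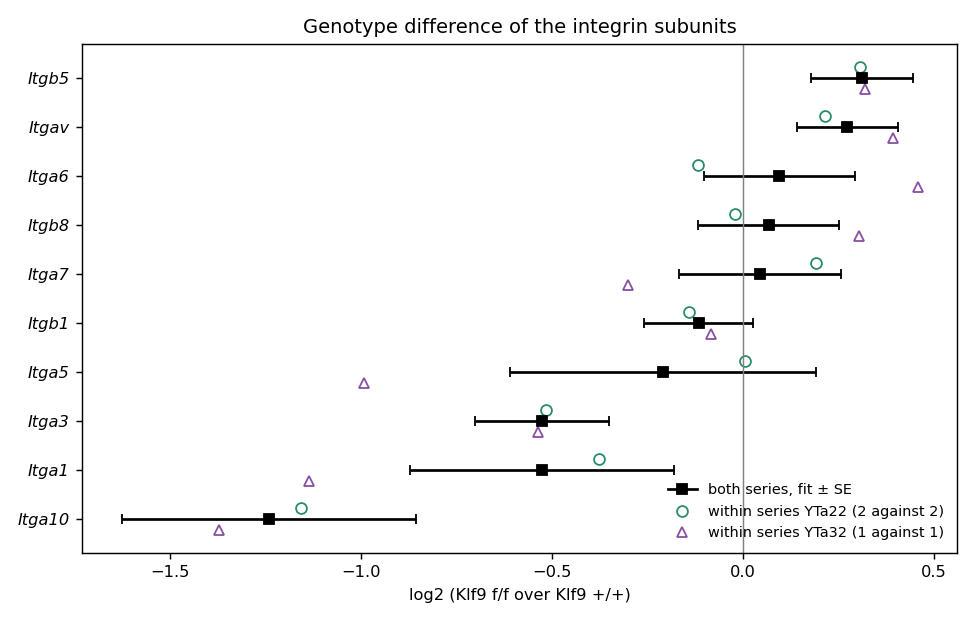
Log2 fold change of each integrin subunit, Klf9 f/f over Klf9 +/+. Squares with bars give the fit over both series ± SE, open circles the difference within series YTa22 (2 samples against 2) and open triangles that within YTa32 (1 against 1). Itga10, Itga3, Itga1, Itgb1, Itgav and Itgb5 have both series on the side of the fit, and for Itga6, Itga7, Itgb8 and Itga5 the series lie on opposite sides of 0.

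The genotype effect was also compared between the series for each gene. The genotype by series interaction had an unadjusted p under 0.05 for 0 of the 10 subunits and for 1.53% of all genes. The smallest among the 10 was 0.156, for Itga5, with an adjusted p of 1 (edgeR's quasi-likelihood test). Series YTa32 has 1 sample per genotype, and the interaction fit left 2 residual degrees of freedom.

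The promoters of the called subunits are shown since Kruppel-like factors are known to bind GC-rich boxes and CACCC elements. They are the 250 bases before the start in RefSeq, on the gene's strand and in the coordinates of GRCm38.p6, which is not the build of the counts. Capitals mark CACCC and GGGCGG on either strand (GGGTG and CCGCCC on the other).
Itga10, chr3:96645334-96645583: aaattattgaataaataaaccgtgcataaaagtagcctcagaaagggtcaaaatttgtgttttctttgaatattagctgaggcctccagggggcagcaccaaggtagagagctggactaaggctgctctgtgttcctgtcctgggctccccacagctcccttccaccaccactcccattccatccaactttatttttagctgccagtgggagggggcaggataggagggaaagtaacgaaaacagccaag
Itga3, chr11:95076715-95076964: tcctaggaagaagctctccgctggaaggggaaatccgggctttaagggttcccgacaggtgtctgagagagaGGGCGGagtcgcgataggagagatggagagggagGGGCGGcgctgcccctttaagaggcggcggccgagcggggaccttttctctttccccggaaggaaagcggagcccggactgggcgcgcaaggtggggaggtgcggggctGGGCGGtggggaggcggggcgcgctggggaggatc
Itgb5, chr16:33829415-33829664: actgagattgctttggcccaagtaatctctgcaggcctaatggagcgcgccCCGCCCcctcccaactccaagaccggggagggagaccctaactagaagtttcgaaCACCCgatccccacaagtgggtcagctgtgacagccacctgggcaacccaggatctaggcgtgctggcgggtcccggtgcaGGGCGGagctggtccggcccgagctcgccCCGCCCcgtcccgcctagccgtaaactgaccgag
The Itga10 window held 0 matches of either motif. The Itga3 window held 3 of GGGCGG and 0 of CACCC, and that of Itgb5 held 3 of GGGCGG and 1 of CACCC. Another Itga3 promoter, further downstream and not shown, held 1 of GGGCGG and 0 of CACCC. The table used here matched 9 promoters to 8 of the 10 genes, and Itga6 and Itga7 were not analysed. Of these 9, 5 held CACCC, beside 52.0% of all 32851 promoters, and 5 held GGGCGG, beside 32.7%. A match is a stretch of letters and not a site of binding.

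Markers of vessel and meningeal cells had negative log2 fold changes. So had 5 of the 10 subunits, Itga10, Itga3, Itga1, Itga5 (-0.21) and Itgb1 (-0.115), while the other 5 were positive. The 12 endothelial markers summed to 166–413 CPM in Klf9 +/+ and 66.0–265 CPM in Klf9 f/f, with 12 of 12 log2 fold changes negative, 3 called lower and a median of -1.02. The 11 mural markers summed to 146–568 against 149–198 CPM, with 6 called lower. The 11 meningeal markers summed to 1046–2090 against 666–1301 CPM, with 1 called lower. All 12 choroid plexus markers were called lower, with sums of 144–2748 against 23.6–418 CPM, and the 10 astrocyte markers summed to 6664–9252 against 9370–10033 CPM, with 3 called higher. Aldoc alone gave 3131–5617 against 4805–6211 CPM of the astrocyte sums. The mean log2 CPM of the astrocyte markers overlapped, at 7.78–8.10 against 7.87–8.55, with 10 of 10 log2 fold changes positive. With a covariate for the mean log2 CPM of the vessel and meningeal markers, 0 of the 10 subunits were called lower. Itga10 stood at -0.91, Itga3 at -0.35, Itga1 at 0.01, Itga5 at 0.33 and Itgb1 at -0.03 with this covariate. Itgb5 remained called higher there. With a choroid plexus covariate Itgb5 was at 0.10, Itga3 at -0.82 and Itga10 at -1.73, none of them called, and Itgb8 was called lower at -0.68. How far these cells account for the integrin values was not tested.

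**Figure D5:**
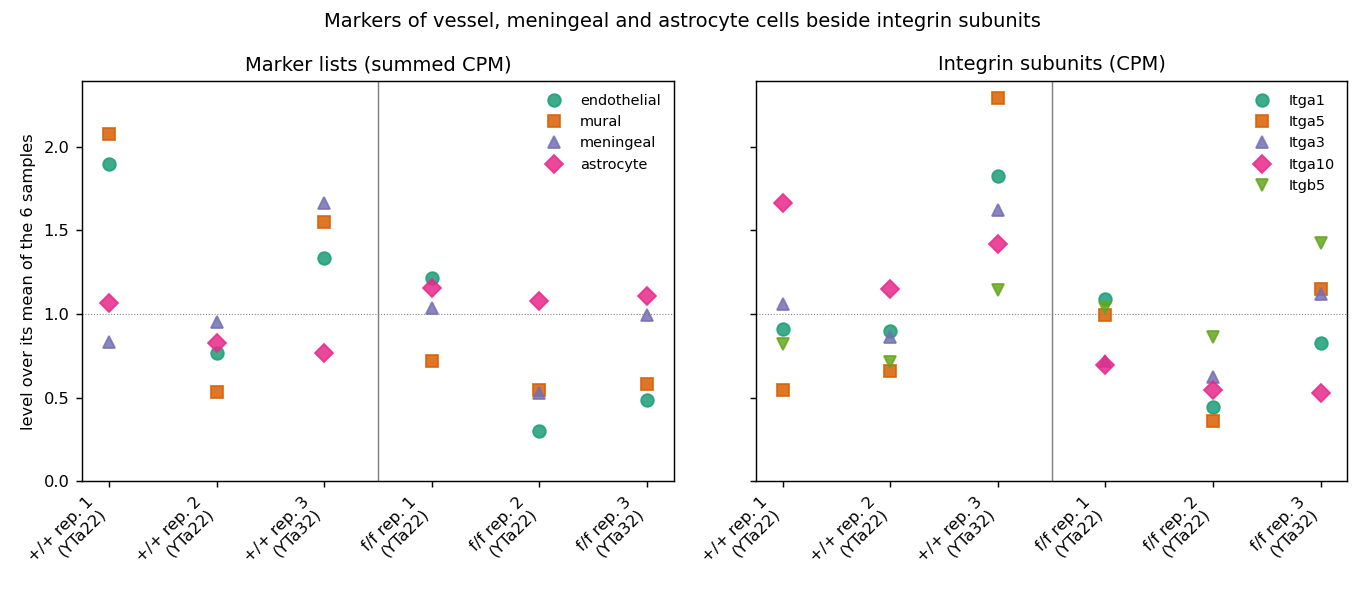
Summed CPM of 4 marker lists (left) and CPM of 5 integrin subunits (right) in each sample, each divided by its mean over the 6 samples on an axis from 0. The line separates Klf9 +/+ from Klf9 f/f. Itga1, Itga3 and Itga5 peak in Klf9 +/+ replicate 3, where the meningeal markers also peak at 2090 CPM. These subunits are lowest in Klf9 f/f replicate 2, where the endothelial (66.0 CPM) and meningeal (666 CPM) markers are lowest. Itgb1 (not drawn) also peaks and is lowest in these samples (194.2 and 129.5 CPM). Itga10 peaks in Klf9 +/+ replicate 1 (1.54 CPM) and is lowest in Klf9 f/f replicate 3 (0.490 CPM). Itgb5 peaks in Klf9 f/f replicate 3 (177.1 CPM) and is lowest in Klf9 +/+ replicate 2 (88.5 CPM). The endothelial (413 CPM) and mural (568 CPM) markers peak in Klf9 +/+ replicate 1, and the mural markers are lowest in Klf9 +/+ replicate 2 (146 CPM). Acta2 alone gives 284 CPM of the mural sum in Klf9 +/+ replicate 1. The mean log2 CPM of the mural markers (not drawn) is highest in Klf9 +/+ replicate 3 (4.48). It is lowest in Klf9 f/f replicate 2 (2.73). That of the endothelial markers is highest in Klf9 +/+ replicate 1 (4.52).

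The partners of integrins were read against the 2.5% of all genes called lower and the 1.82% called higher. Of 25 integrin ligands, 3 were called lower and 0 higher, with a median log2 fold change of -0.16. Postn, a matrix protein of connective tissue, stood at 3.88, 7.41 and 11.9 CPM in Klf9 +/+, and Klf9 f/f had 2.84, 1.51 and 3.56 CPM. These did not overlap, with Klf9 f/f the lower, as was so for 1.35% of all genes. The log2 fold change of Postn was -1.49 ± 0.33 (SE). Ctgf, a secreted matricellular protein, stood at -0.93 ± 0.27 and Thbs1, a thrombospondin, at -0.81 ± 0.34. Klf9 +/+ replicate 3 was the highest of the 6 samples for both, at 134.9 CPM for Ctgf and 14.5 CPM for Thbs1. The log2 differences in YTa22 and YTa32 were -0.49 and -1.76 for Ctgf and -0.59 and -1.49 for Thbs1. The 3 most abundant ligands per kilobase were vitronectin (Vtn, 240.1), osteopontin (Spp1, 43.2) and Vcam1 (33.4 CPM per kilobase). Vtn, the ligand of the pair Itgav and Itgb5, had a log2 fold change of -0.16 ± 0.24 and was not called.

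The genes of TGF-beta and its carriers, on which the Itgb8 pair acts, were split. Of 8, 2 were called lower and 1 higher. Lrrc33, which holds latent TGF-beta on microglia, stood at 3.74, 4.23 and 5.33 CPM in Klf9 +/+, and Klf9 f/f had 7.49, 5.55 and 7.39 CPM. Its genotypes did not overlap, with Klf9 f/f the higher, as was so for 2.03% of all genes. The log2 fold change of Lrrc33 was 0.63 ± 0.22 (SE). Lrrc32, the carrier of platelets, regulatory T cells and endothelium, fell by 0.80 ± 0.30 and Ltbp4, a latent TGF-beta binding protein, fell by 0.83 ± 0.34 on the log2 scale. Klf9 +/+ replicate 3 was the highest sample for both, at 19.7 CPM for Lrrc32 and 77.0 CPM for Ltbp4. The log2 differences in YTa22 and YTa32 were -0.55 and -1.43 for Lrrc32 and -0.585 and -1.30 for Ltbp4. Tgfb2 at 14.1, Ltbp3 at 9.34 and Ltbp4 at 5.76 CPM per kilobase were the highest of the list.

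Inside the cell, 29 of 30 activators and adaptors were tested, with 2 called lower and 0 higher and a median log2 fold change of -0.06. They were Tns1, a tensin that ties integrins to actin, at -0.58 ± 0.23 (SE), and Tgfb1i1, a focal adhesion protein, at -0.39 ± 0.15. The genotypes did not overlap for Tgfb1i1, with Klf9 f/f the lower, as was so for 1.35% of all genes. Bcar1, a docking protein of focal adhesions, was counted at 5849 to 11551 CPM, which put it at 2767 CPM per kilobase, ahead of Rap1b at 77.1 and Actn4 at 36.3. The Bcar1 mean of 9116 CPM was above that of Aldoc (5000 CPM), the highest of the astrocyte markers. Whether all of these reads came from Bcar1 mRNA was not tested. The log2 fold change of Bcar1 was 0.13 ± 0.24. Ilk, of the same list, had 9, 8 and 392 counts in Klf9 +/+ and 26, 18 and 286 in Klf9 f/f. Its counts were thus far higher in the YTa32 sample of each genotype, and the cause was not tested. Of 7 tetraspanins, membrane proteins that sit beside laminin-binding integrins, 0 were called, with Cd63, Cd81 and Cd9 at 740.6, 738.7 and 493.4 CPM per kilobase. Of the 8 other integrin subunits tested, 0 were called, with a median of -0.15.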

How the data were processed

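Ribosome-bound mRNA of 6 samples was analysed. By the study's methods, the authors aligned reads to mm9 with STAR and made unstranded gene counts with HTSeq, which they deposited as whole numbers with no normalization. Input samples were not analysed here. The integrin genes and the gene lists were chosen with earlier results of these data known. Symbols, coordinates and exon lengths came from GENCODE M1, which named 37205 of 37620 genes.

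A gene was tested if 1 or more samples exceeded 1 CPM, which 15056 genes met. The quasi-likelihood test of edgeR 4.0.16 (R 4.3.3) was run after TMM scaling, with library series beside genotype and 3 residual degrees of freedom. Adjustment was by the Benjamini-Hochberg method over all genes tested. The standard error is the log2 fold change over the square root of F. Shares and ratios were compared by exact permutation of all 6 samples with Python 3.11.15, a test that leaves the library series out. All 10 integrin genes are named. From every other pathway list, the genes named are up to 4 called genes and the 3 with the highest level per kilobase. Ilk is named besides these for its counts by series. The overlap of integrin exons with those of other genes is not reported here. Alternatives included DESeq2 1.42.0, other scalings and filters, series YTa22 alone, marker covariates and each sample left out. The fit was first tested on simulated counts. Since each sample pools 3 mice, p-values measure the spread between pools. The radial glia markers, with 1 of 12 called higher, and the granule neuron, oligodendrocyte and microglia markers, with 0, 1 and 0 called higher and 0 called lower, served to check the tissue. Figures were drawn with matplotlib 3.10.9.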

Additional observations from a re-analysis of the deposited data

How the results depend on the processing

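No paired analysis was possible because the labels give the genotypes no shared replicate numbers, and whether samples shared a litter or day is not given in the sources used here. The count of subunits called lower (2) was 1 without the series term, 1 in series YTa22 alone, 3 with no filter beyond 1 count (Itga1 beside Itga3 and Itga10), 0 with the vascular and meningeal covariate, 1 with the choroid plexus covariate (Itgb8) and 0 to 4 with a sample left out. The count called higher (1) was 0 without the series term, in the test against a 1.2-fold change, with upper-quartile scaling, with RLE size factors, in YTa22 alone and with the choroid plexus covariate, and 0 to 2 with a sample left out. Over all genes, 274 higher and 376 lower became 50 and 163 without the series term, 513 and 926 without the filter, and 756 and 779 with the vascular covariate.

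Signs of the log2 fold change turned for Itga7 without the series term (-0.0104), for Itga5 (0.18), Itga6 (-0.0853) and Itgb8 (-0.0565) in YTa22 alone, for Itga1 (0.0132) and Itga5 (0.33) with the vascular covariate, and for Itga5 (0.48), Itga6 (-0.20), Itga7 (-0.0609), Itgb1 (0.0817) and Itgb8 (-0.68) with the choroid plexus covariate. With a sample left out, the ranges were -0.85 to 0.18 for Itga5, -0.0859 to 0.32 for Itga6, -0.18 to 0.22 for Itga7 and -0.0698 to 0.31 for Itgb8. Itga3, Itga10, Itgav and Itgb5 kept their sign in all 17 alternatives. The adjusted p ranged from 0.480 to 1 for Itga3, from 0.152 to 1 for Itga10 and from 0.331 to 1 for Itgb5. With the longest transcript as length, Itga6 made up 33.3% of the alpha level in Klf9 +/+ and 35.2% in Klf9 f/f, and the beta to alpha ratio was 3.27 and 3.51. The causes were not tested. The covariate fits leave fewer degrees of freedom, and Itga10 rests on 11 to 76 counts per sample.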
